A study of Rattus norvegicus with 8 samples.

Results

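Microglia identity genes are the genes by which resident microglia of the brain and spinal cord are told from other macrophages. The 8 genes P2ry12, P2ry13, Tmem119, Cx3cr1, Sall1, Gpr34, Siglech and Olfml3 were taken by symbol from the 32623 genes of the count tables, and all 8 were found. Their levels were measured in cells with at least 3 UMIs (unique molecular identifiers, each the tag of 1 captured RNA) of Tyrobp and at least 10 of C1qa, C1qb and C1qc together, called gated cells here. Tyrobp encodes a signalling adaptor of myeloid cells and C1qa to C1qc encode the chains of complement C1q, so the gate holds microglia and C1q-positive macrophages alike and uses none of the 8 genes. Of 55455 cells kept after quality control, 15908 were gated cells.

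The data are droplet-based single-cell RNA sequencing of the spinal cord of female Wistar rats aged 8 weeks, with 2 libraries in each of 4 groups. The sham group had laminectomy at T9 alone, and the cord of the injured groups was struck by a 10 g weight falling 12.5 mm (mild), 25 mm (moderate) or 50 mm (severe). A 10 mm segment around the lesion was taken after 7 days, dissociated with enzymes and not sorted. Nothing in the labels says whether the 2 libraries of a group came from separate animals, so the tests measure the spread between these libraries, which may be technical.

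Microglia settle in the nervous system before birth and renew themselves there, and the growth factor TGF-beta and the transcription factor Sall1 maintain their identity genes. P2ry12 and P2ry13 encode purine receptors (the former guides microglial processes towards injury), Cx3cr1 the receptor of the neuronal chemokine fractalkine, Gpr34 a receptor of lysophosphatidylserine, Tmem119 a membrane protein, Siglech a sialic acid-binding lectin and Olfml3 a secreted protein. When microglia become activated, many of these genes are known to fall, and macrophages that enter from the blood express most of them weakly.

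Chromosomes and neighbours of the genes were read from the RefSeq gene table of assembly GRCr8, which is not the Rnor_6.0 build of the counts. P2ry12 and P2ry13 were neighbours on chromosome 2, both within Med12l, Olfml3 lay on the same chromosome, and Tmem119 lay on chromosome 12, Cx3cr1 on 8, Sall1 on 19, Gpr34 on X and Siglech on 1. Promoter sequences from RefSeq (GRCr8) matched 5 of the 8 genes. The 250 bases before the start of 4 of them are shown, a pair of receptor genes with most of their UMIs in gated cells (Gpr34 and Cx3cr1) and the genes with most of their UMIs elsewhere (Siglech and Olfml3). Capitals mark GAGGAA or its reverse complement TTCCTC, a core that the myeloid factor PU.1 can bind.
Gpr34, chrX:11785837-11786086, minus strand: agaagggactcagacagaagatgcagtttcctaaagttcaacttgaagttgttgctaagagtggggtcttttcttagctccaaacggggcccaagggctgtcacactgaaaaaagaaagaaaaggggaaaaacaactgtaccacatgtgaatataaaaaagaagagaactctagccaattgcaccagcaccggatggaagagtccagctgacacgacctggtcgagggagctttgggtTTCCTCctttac
Cx3cr1, chr8:128677067-128677316, minus strand: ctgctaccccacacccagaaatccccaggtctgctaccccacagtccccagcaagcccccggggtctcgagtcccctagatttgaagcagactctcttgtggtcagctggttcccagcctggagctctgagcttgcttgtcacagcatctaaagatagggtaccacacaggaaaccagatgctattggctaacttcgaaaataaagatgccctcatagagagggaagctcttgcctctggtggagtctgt
Siglech, chr1:115729241-115729490, plus strand: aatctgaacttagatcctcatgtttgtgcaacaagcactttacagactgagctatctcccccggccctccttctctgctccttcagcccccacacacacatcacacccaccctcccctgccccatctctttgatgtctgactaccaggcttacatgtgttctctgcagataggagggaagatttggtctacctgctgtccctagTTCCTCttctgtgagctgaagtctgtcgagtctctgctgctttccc
Olfml3, chr2:193935495-193935744, minus strand: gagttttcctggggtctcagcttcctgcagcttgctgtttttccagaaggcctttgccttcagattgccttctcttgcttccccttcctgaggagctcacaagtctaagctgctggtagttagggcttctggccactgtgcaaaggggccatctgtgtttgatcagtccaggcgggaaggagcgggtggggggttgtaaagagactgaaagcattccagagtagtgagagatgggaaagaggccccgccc
This motif occurred in 2 of the 5 matched promoters, Gpr34 at 12 bases and Siglech at 46 bases before the start, and in 23.3% of all 33469 promoter sequences of this length. The letters CAGCTG, which are their own reverse complement, occurred in P2ry13, Cx3cr1 and Gpr34 and in 11.97% of all promoters. CAGACA or TGTCTG occurred in Gpr34 and Siglech and in 17.2%, and TATAAA or TTTATA in Gpr34 and in 12.9%.

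The libraries differed in make-up, and the sham libraries stood apart from each other. Gated cells were 497 (5.41% of kept cells) in sham replicate 1 and 2041 (87.4%) in sham replicate 2, against 11.9% to 42.9% in the 6 injured libraries. Gated cells of sham replicate 1 held 6280 CPM (UMIs of a gene per 1000000 UMIs of the same cells) of 12 neutrophil markers together, whereas the other libraries held 201 to 343 CPM. Its fibroblast markers summed to 701 CPM and its oligodendrocyte markers to 1879 CPM, against 16.0 and 340 CPM in sham replicate 2. Astrocyte markers in gated cells were at 299 and 254 CPM in sham and 54.1 to 160 CPM in injured libraries. Dendritic cell markers were at 3202 and 1676 CPM in sham and 773 to 1497 CPM in injured libraries. The other marker lists overlapped between sham and injured libraries, and the part of other cell types in the identity gene levels was not tested. A total of 344 kept barcodes occurred in more than 1 library. The counts of called identity genes, and the changes behind them, are therefore also given without each sham library.

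P2ry12 was at 50.4 and 196 CPM in gated cells of sham replicates 1 and 2. It was at 31.3 and 28.0 CPM in the mild libraries, 26.2 and 16.8 CPM in the moderate libraries and 27.5 and 42.4 CPM in the severe libraries. On this scale all 6 injured libraries were below both sham libraries, but sham replicate 2 was 3.90 times sham replicate 1. With the TMM scaling of the test given further on, which corrects library totals for differences in RNA make-up, severe replicate 2 (53.4 CPM) was above sham replicate 1 (41.6 CPM), so the groups overlapped. Gpr34 was at 75.8 and 198 CPM in sham, 26.8 and 32.3 CPM in mild, 59.4 and 34.1 CPM in moderate and 26.0 and 35.8 CPM in severe libraries, with no overlap of sham and injured libraries, and none with TMM scaling either (62.6 CPM in sham replicate 1, at most 54.8 CPM in injured libraries). The mild and severe libraries of Gpr34 overlapped.

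**Figure D1:**
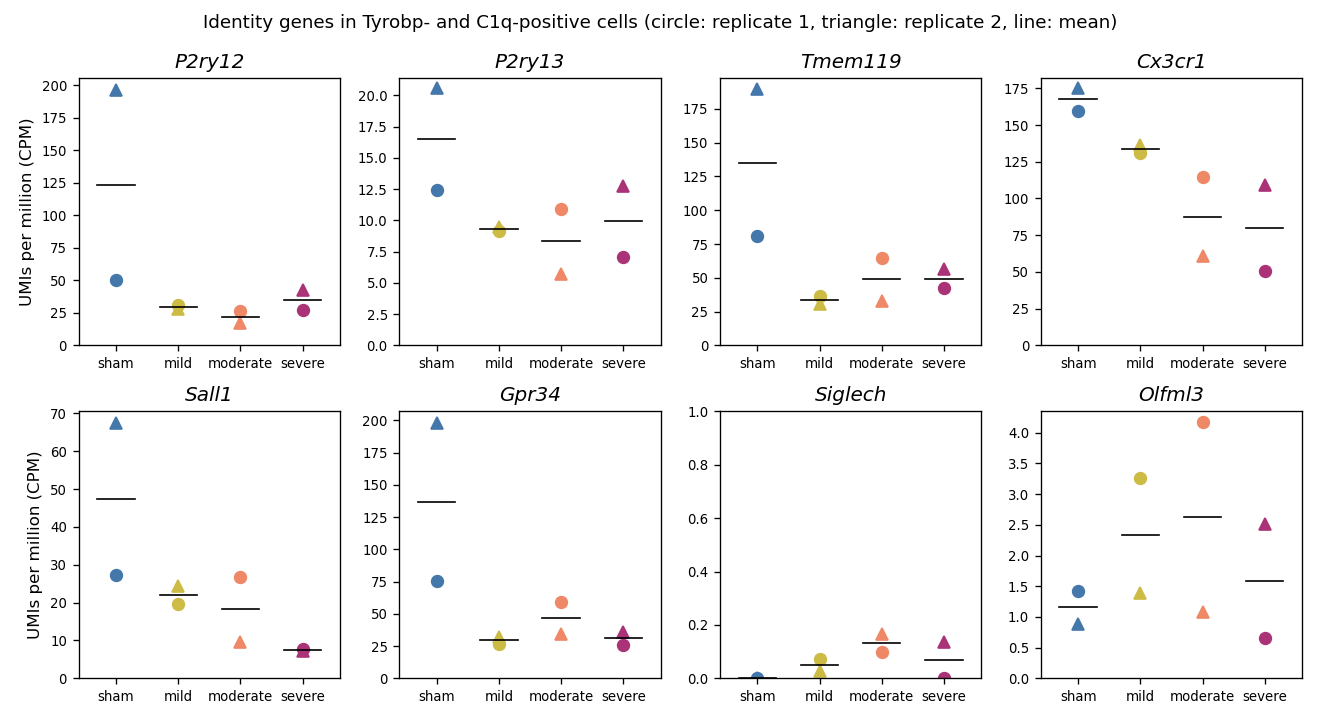
Each panel plots a gene's level in gated cells (y axis, CPM, own scale per panel from 0) for the 4 groups, with 1 point per library and a line at the group mean. On this scale, without TMM, P2ry12, Tmem119, Cx3cr1, Sall1 and Gpr34 have both sham points above all 6 injured points (with TMM Gpr34 alone does), and Siglech stays below 0.2 CPM.

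Tmem119 was at 80.9 and 190 CPM in sham, 36.4 and 30.7 CPM in mild, 64.7 and 33.2 CPM in moderate and 42.1 and 56.4 CPM in severe libraries. Sall1, the transcription factor, was at 27.3 and 67.5 CPM in sham, 19.7 and 24.3 CPM in mild, 26.9 and 9.54 CPM in moderate and 7.73 and 7.18 CPM in severe libraries. In CPM both genes were lower in all 6 injured libraries than in either sham library, but with TMM scaling the groups overlapped. Sham replicate 1 then held 66.8 CPM of Tmem119 and severe replicate 2 held 71.1 CPM, while Sall1 was at 22.6 CPM in sham replicate 1 and at 23.3 and 24.8 CPM in mild replicate 2 and moderate replicate 1. Both severe libraries and moderate replicate 2 had the lowest Sall1 levels on either scale (8.62 to 9.41 CPM with TMM).

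Cx3cr1 was at 160 and 175 CPM in sham, 131 and 136 CPM in mild, 115 and 60.5 CPM in moderate and 50.5 and 109 CPM in severe libraries. The sham libraries differed little (168 ± 11.1 CPM, SD, n = 2), and the injured libraries spread from 136 down to 50.5 CPM. With TMM scaling severe replicate 2 (137 CPM) was above sham replicate 1 (132 CPM). P2ry13 was at 12.4 and 20.6 CPM in sham, 9.18 and 9.47 CPM in mild, 10.9 and 5.73 CPM in moderate and 7.08 and 12.8 CPM in severe libraries. Severe replicate 2 exceeded sham replicate 1, so the groups overlapped.

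Olfml3 and Siglech were close to 0 in gated cells. Olfml3 lay between 0.658 and 4.17 CPM with 4 to 172 UMIs per library, and the sham libraries (1.43 and 0.884 CPM) lay within the injured range. Siglech had 0 UMIs in both sham libraries, which allows up to 0.612 and 0.140 CPM (3 UMIs of the total, counting error only), and 0 to 5 UMIs in the injured libraries. Both genes are used as microglia markers in the mouse.

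Group means were as follows. P2ry12 averaged 123 ± 103 CPM (SD, n = 2) in sham, 29.7 ± 2.39 CPM in mild, 21.5 ± 6.63 CPM in moderate and 34.9 ± 10.5 CPM in severe libraries. In CPM, all 6 injured libraries were below both sham libraries for 5 of the 7 genes that could be tested (P2ry12, Gpr34, Tmem119, Sall1 and Cx3cr1), while 12.6% of all 12643 genes tested showed this pattern. With TMM scaling this held for 1 of the 7 genes, Gpr34, and for 10.3% of all genes. In bulk sums of this kind, fewer cells of a type and less RNA per cell cannot be told apart, so a lower level in the gate may hold either.

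To ask whether the differences exceeded the spread between libraries, UMI sums of gated cells were tested across all genes with edgeR's quasi-likelihood test. Siglech was too low to be tested. P2ry12 fell by 2.10 on the log2 scale (SE 0.46, adjusted p = 0.0413, 4.29-fold) in the mean of the injured groups against sham, and Gpr34 fell by 1.92 (SE 0.39, adjusted p = 0.0350, 3.78-fold). They were 2 of 7 tested identity genes, where 5.04% of all genes were called in either direction and 2.89% were called lower. Tmem119 (log2 fold change -1.58, SE 0.38, adjusted p = 0.0519) and Sall1 (-1.67, SE 0.44, adjusted p = 0.0639) did not pass the threshold of 0.05, nor did P2ry13 (-0.77, adjusted p = 0.218), Cx3cr1 (-0.65, adjusted p = 0.254) or Olfml3 (1.15, adjusted p = 0.348).

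**Figure D2:**
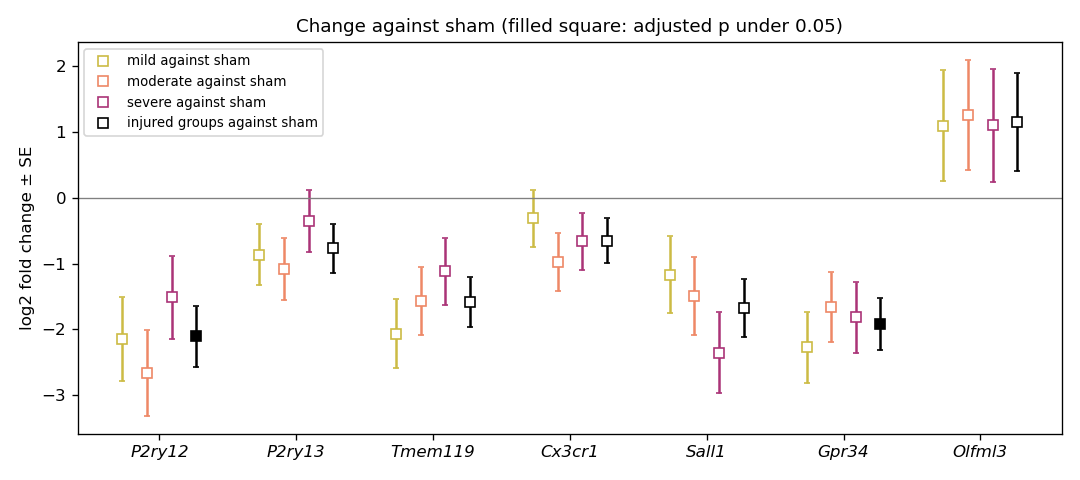
Log2 fold change of the 7 tested identity genes in gated cells (y axis, edgeR, bars ± SE) for each injured group and for the mean of the injured groups against sham, with filled squares for an adjusted p under 0.05. The filled squares are P2ry12 and Gpr34 in the mean of the injured groups, and Olfml3 alone lies above 0.

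Both calls changed with the libraries left in the fit, and the cause of this was not tested. Without sham replicate 1, 4 identity genes (P2ry12, Gpr34, Tmem119 and Sall1) were called lower in the mean of the injured groups, where 8.77% of all genes were called and 5.57% called lower. Without sham replicate 2 none was called, although 11.7% of all genes were, and without any 1 of the 6 injured libraries none was called either (0.332% to 1.87% of all genes). The log2 fold change of P2ry12 was -2.82 without sham replicate 1 and -0.48 without sham replicate 2, and that of Gpr34 was -2.52 and -0.76. Cells outside the gate of the same libraries held 0.745 to 2.44 CPM of P2ry12 and 0.582 to 4.89 CPM of Gpr34.

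In no single injured group did an identity gene pass the threshold, where 3.16%, 0.427% and 3.50% of all genes were called for mild, moderate and severe against sham. At an unadjusted p under 0.05 edgeR gave 3 of the 7 genes for mild, 5 for moderate and 3 for severe against sham, where it gave 26.8%, 20.1% and 24.9% of all genes. DESeq2 called 3, 3 and 2 of them after adjustment, where it called 12.7%, 7.46% and 10.3% of all genes. In mild libraries the differences were largest for Gpr34 (log2 fold change -2.27, SE 0.54, adjusted p = 0.0567), P2ry12 (-2.14, SE 0.64, adjusted p = 0.0876) and Tmem119 (-2.06, SE 0.52, adjusted p = 0.0626). In moderate libraries P2ry12 was at -2.66 (SE 0.65, adjusted p = 0.0891), and in severe libraries Sall1 was at -2.35 (SE 0.62, adjusted p = 0.0743). The 3 comparisons share the sham libraries, and 6 of the 7 genes had a negative fold change in each.

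These values moved with the sham library that was kept. Without sham replicate 1, 3 identity genes were called lower in mild, 4 in moderate and 4 in severe libraries, where 10.4%, 6.61% and 7.24% of all genes were called. Without sham replicate 2 none was called in any of the 3 groups, where 10.4%, 6.05% and 13.1% of all genes were called. The log2 fold change of Gpr34 in mild libraries was -2.87 without sham replicate 1 and -1.11 without sham replicate 2, that of P2ry12 was -2.85 and -0.52, and that of Tmem119 was -2.63 and -1.03. P2ry12 in moderate libraries went to -3.38 and -1.04, and Sall1 in severe libraries to -2.93 and -1.26. In severe libraries P2ry12 (-1.51 with both) was at -2.22 without sham replicate 1 and at 0.11 without sham replicate 2.

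Severe and mild libraries were compared directly to see whether the levels followed the severity of injury. None of the 7 genes passed (2.33% of all genes did), and 0 had an unadjusted p under 0.05 (19.5% of all genes did). The log2 fold changes in severe against mild ranged from -1.19 for Sall1 (SE 0.60, adjusted p = 0.317) to 0.94 for Tmem119 (SE 0.51, adjusted p = 0.347). DESeq2 called none of the genes either, and 7.7% of all genes. A fit of these 2 groups alone called 2 of the 7 genes, 1 of them lower, and 10.0% of all genes. Without a filter on low counts 1 identity gene was called, lower, and 7.21% of all genes. The intervals were too wide for a statement that the groups were alike.

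Expression was then examined in single cells. Because gated cells of different libraries differed in depth (median 7354 to 17778.5 UMIs per cell), each cell was thinned to 1000 UMIs at random, and shallower cells were left out. P2ry12 was then detected in 4.61% of 477 cells of sham replicate 1 (95% Wilson interval 3.07 to 6.88%) and in 19.3% of 2033 cells of sham replicate 2 (17.7 to 21.1%). The injured libraries lay between 1.61% in moderate replicate 2 and 4.75% in severe replicate 2, so the latter overlapped with sham replicate 1. Without thinning, 29.4% and 73.1% of sham cells and 37.6% of the cells of severe replicate 2 had a P2ry12 UMI.

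The share of cells with a Gpr34 UMI after thinning was 6.92% and 18.7% in sham and 3.01% to 5.75% in injured libraries. Tmem119 was seen in 6.50% and 17.2% of sham cells and in 2.83% to 6.52% of injured cells, the highest of them in moderate replicate 1. Sall1 was seen in 3.77% and 6.15% of sham cells and in 0.472% to 2.98% of injured cells. The shares of Cx3cr1 were 11.7% and 16.1% in sham and 5.82% to 12.8% in injured libraries, and those of P2ry13 were 1.47% and 2.26% in sham and 0.750% to 1.36% in injured libraries. The mean share was lower in injured than in sham libraries for 7 of the 8 genes (for Olfml3 under none of the 6 other thinning depths, gates and cell sets), and Siglech was seen in no thinned gated cell. With 2 sham and 6 injured libraries an exact rank-sum test cannot reach a two-sided p under 0.05, and no test was made.

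**Figure D3:**
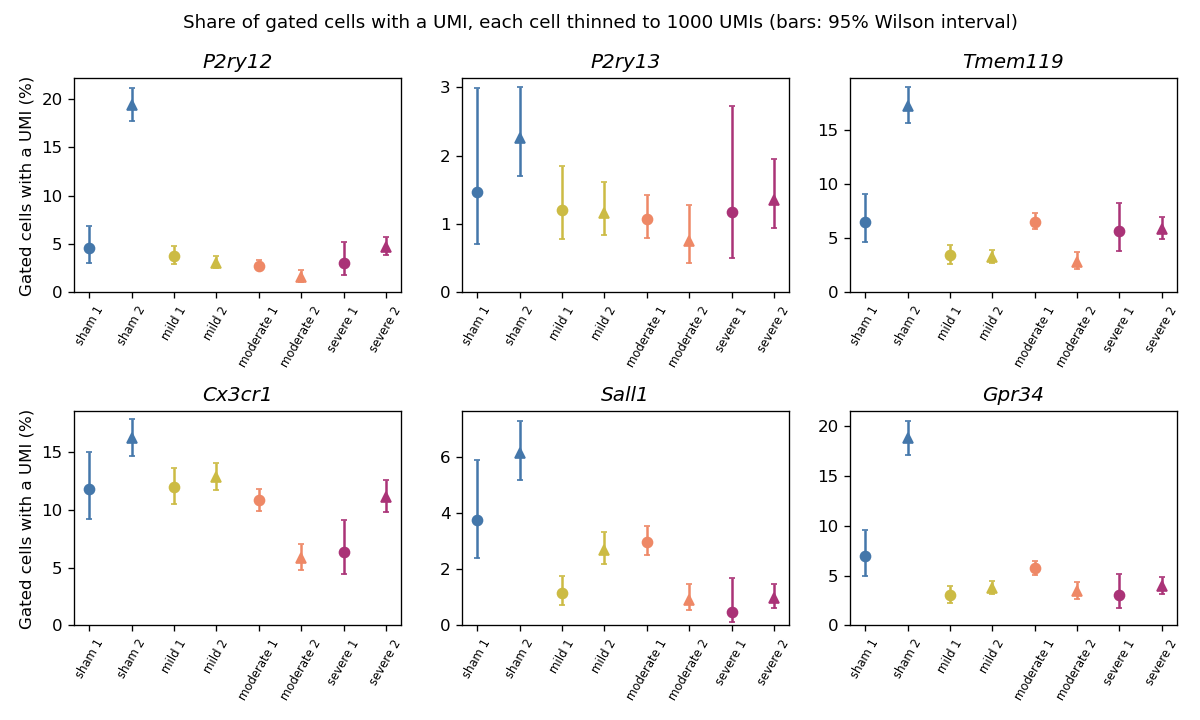
Share of gated cells with at least 1 UMI of 6 of the identity genes (Siglech and Olfml3 are left out) after thinning every cell to 1000 UMIs (y axis, percent, own scale per panel), for each library with its 95% Wilson interval. Sham replicate 2 is the highest point for each of these 6 genes, while sham replicate 1 lies close to or within the injured libraries for P2ry12, Tmem119 and Cx3cr1.

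In erythrocyte-like and neutrophils-like cells the shares given here were lower than in gated cells of the same library. P2ry13 in the latter was within the range of gated cells in injured libraries. Cells of an erythrocyte-like cluster in severe replicate 2 (median of the cluster 6612.5 UMIs) had a UMI of P2ry12 in 0 of 921 thinned cells, which allows up to 0.326%. In the neutrophils-like cluster of sham replicate 1 (median of the cluster 2442 UMIs) P2ry12 was at 0 of 4287 cells, which allows up to 0.0700%, and Cx3cr1 at 0.163%, Gpr34 at 0.117% and Tmem119 at 0.0700%. P2ry13 was at 0.793% in those cells, below the 1.47% of gated cells in the same library but within the 0.750% to 1.36% of gated cells in injured libraries. Its share therefore did not set them apart from gated cells of the injured libraries.

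The genes were rarely seen together in a cell at this depth. Gated cells with no UMI of any of the 8 genes after thinning were 71.7% and 43.9% in sham, 77.5% and 76.9% in mild, 74.0% and 85.8% in moderate and 83.5% and 75.9% in severe libraries. If the genes were independent of each other within a library, 69.2% and 41.7% of sham cells would hold none. Cells with 3 or more of the genes were 0.839% and 4.43% in sham and 0% to 0.472% in injured libraries. The mean number of identity genes seen per cell in injured libraries was 0.420 times that in sham, but 0.303 times that of sham replicate 2 alone and 0.683 times that of sham replicate 1 alone.

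Gated cells with a P2ry12 UMI after thinning were set against those without one in the same library. P2ry13 was seen more often in the cells with P2ry12 in 7 of 8 libraries, Tmem119 and Cx3cr1 in 6, and Sall1 and Gpr34 in 5. The cells with P2ry12 numbered 393 in sham replicate 2 but 13 to 119 in the other libraries, so single shares are imprecise. In sham replicate 2, Tmem119 was seen in 23.9% of cells with and in 15.6% of cells without P2ry12, and Gpr34 in 18.6% and 18.8%.

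Lists of other genes were compared between these cells as well, as CPM summed over each list from all UMIs, without thinning. The summed level of 19 other homeostatic microglia genes (such as Csf1r and Slc2a5) was higher in cells with a P2ry12 UMI in 8 of 8 libraries, by 1.41 to 1.75 times. Cst3 made up most of that sum (29784 of 32594 CPM in gated cells of sham replicate 1), and without it the other 18 genes were higher in 8 of 8 libraries too, by 1.24 to 1.65 times. The summed level of 20 genes of activated phagocytes (such as Spp1, Gpnmb and Lgals3) was lower in these cells in 8 of 8 libraries, at 0.222 to 0.827 times. Sums of 12 infiltrating macrophage genes and of 8 border macrophage genes were lower in 8 of 8 libraries as well, at medians of 0.674 and 0.607 times. Cell cycle genes were higher in 5 of 8 libraries.

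To place the genes among all cells, cells were clustered without the identity genes, which gave 24 clusters named from marker genes where possible. Of the UMIs in kept cells, 96.1% for P2ry12, 95.1% for Gpr34, 87.8% for Cx3cr1, 86.5% for Tmem119, 84.1% for P2ry13 and 74.2% for Sall1 lay in gated cells. By contrast, 0.495% for Siglech and 2.44% for Olfml3 did. The levels in clusters given next are CPM over all cells of a cluster pooled.

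Cluster 10, macrophages/microglia-like with Cst3 and Ctss among its leading genes, had the highest level of P2ry12 (207 CPM), Tmem119 (215 CPM), Gpr34 (199 CPM), Cx3cr1 (200 CPM), Sall1 (70.7 CPM) and P2ry13 (22.0 CPM). Of its 1735 cells, 85.1% came from sham replicate 2, so cluster and library cannot be told apart there. For P2ry13 the dendritic cells-like cluster 19 was close (21.3 CPM). In the mean over libraries with at least 20 cells, cluster 19 was above cluster 10 (30.3 and 21.6 CPM). Cluster 0 was led by the C1q genes and cluster 8 by Mki67 and Top2a of dividing cells. Of cluster 14, 86.7% came from severe replicate 2. These macrophages/microglia-like clusters held P2ry12 at 35.5, 38.2 and 59.5 CPM, below the 77.2 CPM of the unnamed cluster 22 given further on. Cluster 1, led by Apoc1, Apoe, Spp1 and Fabp4, was macrophages/microglia-like too but held P2ry12 at 2.89 CPM and Sall1 at 0.412 CPM. Cluster 3 was led by Fn1, Fcnb, S100a4 and Vcan and had 5 of the macrophages/microglia markers but none among its leading 10 genes, and it held P2ry12 at 1.23 CPM and Sall1 at 0.398 CPM. Cx3cr1 remained measurable in both, at 24.1 and 27.1 CPM.

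**Figure D4:**
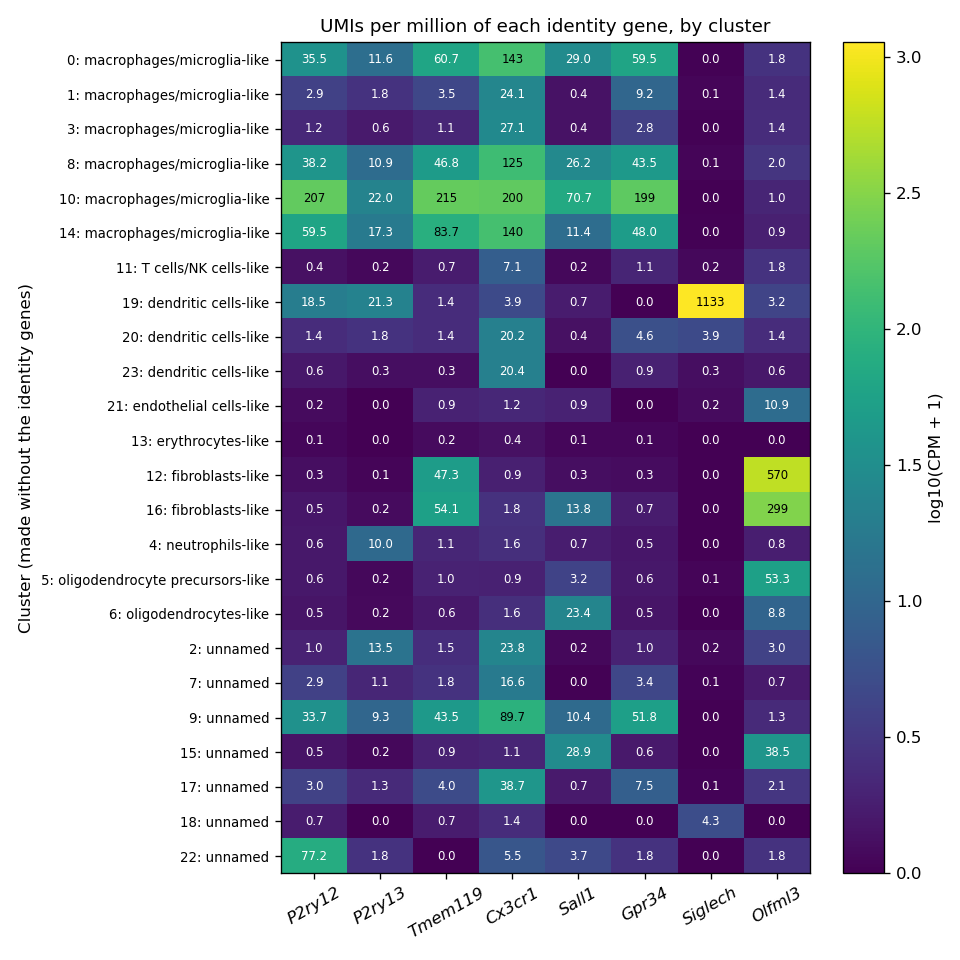
Pooled CPM (number in each field; colour on a log10(CPM + 1) scale) of the 8 identity genes (columns) in 24 clusters made without them (rows). P2ry12, Tmem119, Gpr34, Cx3cr1, Sall1 and P2ry13 peak in cluster 10, Siglech in the dendritic cells-like cluster 19 and Olfml3 in the fibroblasts-like clusters 12 and 16. P2ry13 is nearly as high in cluster 19 as in cluster 10.

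Levels were then compared within single clusters. In the dividing cluster 8, P2ry12 was at 106 CPM (39 cells) and 134 CPM (199 cells) in sham replicates 1 and 2, at 21.3 to 34.2 CPM in the mild and moderate libraries and at 78.9 CPM in severe replicate 2 (41 cells). Gpr34 in this cluster was at 102 and 143 CPM in sham and at 25.2 to 57.0 CPM in the injured libraries with at least 20 cells. In cluster 0, P2ry12 was at 81.1 CPM in sham replicate 2 and at 22.7 to 37.9 CPM in the mild and moderate libraries. In cluster 10, sham replicate 1 held 55.6 CPM of P2ry12 (196 cells) and sham replicate 2 held 239 CPM (1477 cells), so the difference between the sham libraries was present within that cluster too. The 20 cells of severe replicate 2 in cluster 10 held P2ry12 at 111 CPM, Gpr34 at 125 CPM and Tmem119 at 200 CPM, above sham replicate 1 (55.6, 82.0 and 105 CPM) and below sham replicate 2 (239, 225 and 237 CPM). Their Cx3cr1 level (258 CPM) was above both sham libraries (196 and 198 CPM).

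Cx3cr1 differed less within clusters. In cluster 0 it was at 133 CPM in sham replicate 2, below the 143 to 174 CPM of both mild libraries and moderate replicate 1 and above the 73.7 CPM of moderate replicate 2. In cluster 8 it was at 198 and 132 CPM in sham and at 76.3 to 185 CPM in injured libraries. The groups therefore overlapped in both clusters.

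**Figure D5:**
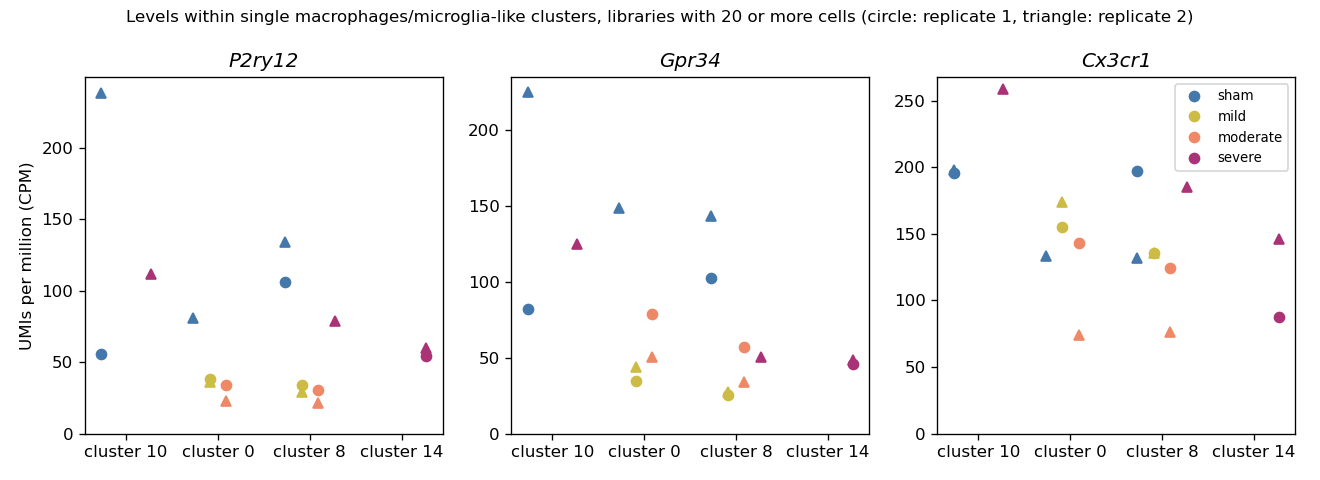
Level (y axis, CPM) of P2ry12, Gpr34 and Cx3cr1 in the macrophages/microglia-like clusters 10, 0, 8 and 14, with 1 point for each library that has 20 or more cells in the cluster. P2ry12 and Gpr34 are higher in sham than in injured libraries in cluster 8 but not in cluster 10. In cluster 0 sham replicate 2, the only sham library there, is above the mild and moderate libraries, and no severe library is shown. In clusters 0 and 8 sham and injured libraries overlap for Cx3cr1.

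Siglech was found in 1 cluster only to any extent. It reached 1133 CPM in the dendritic cells-like cluster 19 (491 cells), which had Irf8 among its leading genes, and was at most 4.26 CPM in any other cluster. The 6 injured libraries held 856 to 1385 CPM there. The same cluster held P2ry13 at 21.3 CPM and P2ry12 at 18.5 CPM, while Tmem119 was at 1.42 CPM. Siglech is known as a marker of plasmacytoid dendritic cells in addition to microglia.

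Olfml3 was highest in the fibroblasts-like clusters 12 and 16, at 570 and 299 CPM, followed by oligodendrocyte precursors-like cells at 53.3 CPM and cluster 15, led by Gfap, at 38.5 CPM. In cluster 12 the injured libraries held 252 to 814 CPM and sham replicate 1 held 160 CPM. In cluster 16 they held 280.5 to 446 CPM, against 81.9 and 132 CPM in the sham libraries, and no test was made on these levels. Tmem119 was expressed in both fibroblasts-like clusters as well, at 47.3 and 54.1 CPM, which is within the 30.7 to 64.7 CPM of gated cells in injured libraries.

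Sall1 was measurable in oligodendrocytes-like cells at 23.4 CPM and in the Gfap-led cluster 15 at 28.9 CPM. P2ry13 was at 9.98 CPM in neutrophils-like cells and at 13.5 CPM in cluster 2, an unnamed cluster of few UMIs per cell led by G0s2, Cxcl2 and Il1b. P2ry12 was at 77.2 CPM in cluster 22, 415 cells with few UMIs led by Pf4, Nrgn and Clec1b, which are genes of platelets and megakaryocytes. Of these cells, 99.5% came from sham replicate 1. The P2Y12 receptor is known to act in platelets too, and the P2ry12 level of cluster 22 rested on 42 UMIs. Gpr34 and Cx3cr1 were at 1.84 and 5.52 CPM there.

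Fixed lists of related genes were read in the same test of gated cells. Of 18 tested other homeostatic microglia genes, 4 fell and 0 rose in the mean of the injured groups against sham, where 2.89% of all genes were called lower and 2.15% higher. The median log2 fold change of the list was -0.89, against -0.06 over all genes. Cst3, a protease inhibitor that microglia secrete in quantity, was at 29784 and 39045 CPM in sham and at 2910 to 10625 CPM in injured libraries, a fall of 2.41 on the log2 scale (SE 0.28, adjusted p = 0.0108). Selplg (-1.84, SE 0.41, adjusted p = 0.043), which encodes a selectin ligand, and Pros1 (-1.49, SE 0.23, adjusted p = 0.0217), which encodes protein S, fell as well. Both sham libraries were above all injured libraries in CPM for Cst3, Selplg and Pros1, a pattern that 12.6% of all genes tested showed. These genes were picked by the test on the same libraries, so the pattern is not separate evidence. Without sham replicate 1 the list had 12 genes that fell, without sham replicate 2 it had 3 that fell (Cst3, Selplg and Pros1) and 1 that rose (Hpgds), and without any 1 injured library it had 0 to 2. Over all genes, 5.57% were called lower without sham replicate 1, and 5.25% lower and 6.43% higher without sham replicate 2.

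Of 20 genes of activated phagocytes, 5 rose and 0 fell, where 2.15% of all genes were called higher. Fabp5, a fatty acid-binding protein, rose by 2.42 on the log2 scale (SE 0.38, adjusted p = 0.0222) and Gpnmb, a glycoprotein of lysosome-rich macrophages, by 2.41 (SE 0.43, adjusted p = 0.0272). Lgals3 (1.93), Cd68 (1.67) and Cd63 (1.03) rose as well, at adjusted p-values of 0.0298, 0.0291 and 0.0486 in edgeR's test. The lowest injured level of Gpnmb was 1459 CPM, against 306 and 626 CPM in sham. Of 12 infiltrating macrophage genes Fabp4 rose in the same test (3.59, SE 0.61, adjusted p = 0.0261). Of 8 border macrophage genes Siglec1 (2.82, SE 0.33, adjusted p = 0.0108) and Folr2 (1.32, SE 0.24, adjusted p = 0.0296) rose in it, and the other 6 were not called. DESeq2 called Siglec1 and Folr2 higher and Cd163 lower. The summed border macrophage genes were at 2038 and 412 CPM in sham replicates 1 and 2, and at 892 to 1434 CPM in injured libraries. Without sham replicate 1, 9 infiltrating macrophage genes rose (Fn1, Vcan and Ms4a7 among them, with 3.2% of all genes higher), and without sham replicate 2, 12 of the 20 activated phagocyte genes rose. Without any 1 injured library, 0 to 3 activated phagocyte genes rose. Of the infiltrating macrophage genes, Fabp4 alone rose without sham replicate 2, and another gene of that list fell. Fewer activated phagocyte genes rose without sham replicate 1 than without sham replicate 2. Calls of infiltrating macrophage and activated phagocyte genes thus depended on the sham library kept, and such fits rest on a single sham library. In gated cells with no UMI of infiltrate and border genes, no gene of these 3 lists was called, and 0.703% of all genes were. The choice of cells itself set Fn1, Vcan, Ms4a7, Mrc1 and Cd163 to 0, so this count cannot show how the lists behave.

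None of 19 tested regulators of microglia passed the threshold of edgeR's test in this comparison, 8 had an unadjusted p under 0.05, and DESeq2 called 3, where 27.1% of all genes had such a p and DESeq2 called 11.5%. Fits with a single sham library gave opposite directions, with some regulators higher without sham replicate 2 and some lower without sham replicate 1. The direction thus depended on the sham library kept. Sall3, a relative of Sall1, had a log2 fold change of -1.43 (SE 0.45, adjusted p = 0.0930) and Spi1, which encodes PU.1, 0.55 (SE 0.27, adjusted p = 0.227). None of 9 cell cycle genes and none of 11 immediate early and heat shock genes, which can respond to dissociation, passed in edgeR's test, where 4 and 3 had an unadjusted p under 0.05 and DESeq2 called 4 and 1. More cell cycle genes rose without sham replicate 2 than without sham replicate 1. Calls in both lists thus depended on the sham library kept, and such fits rest on a single sham library.

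The gate does not separate microglia from macrophages of other origin. Summed infiltrating macrophage genes in gated cells were at 4751 and 1944 CPM in sham and at 3294 to 11382 CPM in injured libraries. Cells with no UMI of Fn1, Vcan, Ms4a7, Mrc1 and Cd163, which mark infiltrating and border macrophages, made up 58.6% and 82.4% of gated cells in sham and 17.3% to 52.7% in injured libraries. These shares were taken without thinning. Gated cells had a median of 7354 and 9703 UMIs in sham and 9010 to 17778.5 in injured libraries, and the part of depth was not tested. Among the cells without these UMIs, P2ry12 was at 58.4 and 211 CPM in sham and at 24.9 to 58.7 CPM in injured libraries, so that severe replicate 2 and sham replicate 1 overlapped. Gpr34 was at 82.0 and 212 CPM in sham and 32.5 to 72.6 CPM in injured libraries, without overlap. None of the identity genes passed edgeR's test in these cells (P2ry12 adjusted p = 0.0748, Gpr34 adjusted p = 0.0718), where 0.703% of all genes did. The part of macrophages in the levels of the full gate was not otherwise tested.

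The genes whose levels were most like the mean of the 8 identity genes were sought among all other genes. Over the 24 clusters these were Slc2a5, a fructose transporter (Pearson r = 0.908), Clec2l (0.892), Gal3st4 (0.871), Sectm1a (0.867) and Grhl3 (0.860), among 11386 genes. Over the 8 libraries of gated cells they were Zfp708 (0.978), Zfp606 (0.973), Ganc (0.962), Map7d3 (0.961) and Ppm1k (0.958), among 12636 genes. Ppm1k was at 13.3 and 32.6 CPM in sham and 3.10 to 7.93 CPM in injured libraries (log2 fold change -2.13, adjusted p = 0.0413 in edgeR's test), while Zfp708 stayed at or below 1.72 CPM. These correlations are descriptions over points that share depth and library, and sham replicate 2 had the highest level of each of the 5 genes found over libraries. Within the 8 genes, each member was set against the mean of the others over the clusters, which gave r of 0.612 to 0.788 for P2ry12, P2ry13, Tmem119, Cx3cr1, Sall1 and Gpr34 but -0.12 for Siglech and -0.23 for Olfml3.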

How the data were processed

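For each of the 8 libraries the authors deposited raw UMI counts of 32623 genes per cell, made with Cell Ranger (version 5.0.1 in the count table header) against Rnor_6.0, without normalization. All count columns belong to a labelled library. Cells with over 10% mitochondrial UMIs, the 7.7% with the highest Scrublet score (scanpy 1.11.5) in each library and cells beyond the mean ± 2 SD of UMIs or genes were removed. Total UMIs were 31482153 to 131045446 per library as deposited, and gated cells held 4904726 to 41225213. Fewer UMIs give wider counting error, and intervals and limits cover counting error only.

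UMIs of gated cells were summed per library, since cells are not replicates, and tested with the quasi-likelihood test of edgeR 4.0.16 (R 4.3.3) after filterByExpr and TMM normalization, with the 4 groups in 1 fit and Benjamini-Hochberg adjustment over all genes tested. On simulated counts of 12305 genes for the injured groups against sham, 47.4% of genes changed 2-fold and 96.9% of genes changed 4-fold were recovered, and 2.80% of calls were false. The simulated dispersion (spread between libraries beyond counting error) was set below the 0.0977 fitted to the gated cells. These rates therefore hold for less variable counts than those tested. DESeq2 1.42.0, another scaling, no filter, other gates and cell filters, the replicate block, fits of the compared groups alone and fits without each library in turn were alternatives. CPM levels are not TMM-scaled unless stated. TMM-scaled levels, leaving out libraries for the number of genes per cell and the homeostatic list without Cst3 were chosen after seeing the data. Clusters were made with Seurat 5.3.0 from 3993 variable genes without the identity genes, 15 principal components and a resolution of 0.4 (0.8 as an alternative), without batch correction. A cluster was called like a type when 10% or more of its cells held each of 3 or more markers and its leading 10 genes held more markers of that type than of any other, or held no marker of any type while its leading 50 held 1 or more of that type (as in cluster 3). Clusters of low UMI number with none of their markers among those 10 genes stayed unnamed, and the rule on the leading genes was settled after the clusters had been seen.

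The identity genes and the gene lists were chosen with earlier results of these data known. Named genes were all 8 identity genes, for each list up to 4 called genes with the largest change in the injured groups against sham, and the 5 genes most like the identity genes over libraries (log2(CPM + 1)) and over clusters of at least 100 cells. Cd63, Sall3, Spi1 and Hpgds were named after their values were seen. Some genes are not reported here by name, while counts include them. Listed genes without a row in the count tables, Ccr2 among them, were not used. Whether same-numbered libraries are paired was checked by correlating the differences between replicates 1 and 2 over genes, which gave -0.17 to 0.15 for the pairs of groups, so the numbers were not taken as pairs.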

Additional observations from a re-analysis of the deposited data

How the results depend on the processing

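The 6 identity genes P2ry12, P2ry13, Tmem119, Cx3cr1, Sall1 and Gpr34 kept a negative fold change against sham under nearly all alternatives, while calls and counts of genes moved a lot. In the mean of the injured groups against sham, DESeq2 called 4 identity genes, where it called 11.5% of all genes. Scaling by library size only called 4 (6.91% of all genes), no filter on low counts 4 (11.9%) and no cell filter 4 (5.28%, Siglech then rose). None was called with the looser gate (2.31%), without cells holding infiltrate or border genes (0.703%) or with the replicate block (1.70%). In mild, moderate and severe against sham DESeq2 called 3, 3 and 2 identity genes (12.7%, 7.46% and 10.3% of all genes). No filter on low counts called 4, 6 and 4 there (10.1%, 7.69% and 9.78%). Library size only called 2 in severe, both lower, and no cell filter 1 in mild, which was higher. In severe against mild, no filter on low counts called 1, lower, and the fit of only the groups compared called 2, 1 of them lower. Leaving out single libraries gave 0 to 4 identity genes in the mean of the injured groups, 0 to 3 in mild, 0 to 4 in moderate and 0 to 4 in severe against sham.

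All genes called in mild, moderate and severe against sham, in the mean of the injured groups and in severe against mild numbered 399, 54, 443, 637 and 295. DESeq2 called 1531, 902, 1315, 1515 and 931, and no filter on low counts 1934, 1472, 1871, 2279 and 1379. The replicate block left 35, 26, 242, 215 and 177, and the looser gate 106, 13, 225, 330 and 167. Without cells holding infiltrate or border genes 48, 16, 142 and 80 were left for the first 4 comparisons. Only the groups compared gave 0, 0 and 90 for mild, moderate and severe against sham and 1198 for severe against mild. Moderate against sham gave 103 without a cell filter, 148 without doublet removal and 26 with the gate after thinning. Library size only called 974 in severe against sham and 592 in severe against mild, moved the median of all genes in severe against sham from -0.11 to -0.52, and turned the share of calls that were lower from 29.8% to 77.2% there, from 36.9% to 74.8% in severe against mild and from 57.3% to 70.0% in the mean of the injured groups. Leaving out 1 library gave 0 to 1396, 0 to 869, 70 to 1758, 44 to 1566 and 45 to 1132, and a lone library left in a group is assumed to vary like the other groups. The numbers of replicates were not taken as pairs, and the cause of these moves was not tested.

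Some fold changes reversed. Olfml3 went to -0.056 in moderate against sham without moderate replicate 1 (-0.056 to 1.92 over the left-out libraries), and in severe against sham to -0.19 with the stricter gate, -0.11 with the gate after thinning, -0.020 without cells holding infiltrate or border genes and -0.35 without severe replicate 2 (-0.35 to 1.65). P2ry13 in severe against sham went to 0.22 without cells holding infiltrate or border genes, 0.35 without sham replicate 2 and 0.022 without severe replicate 1 (-0.90 to 0.35 over the left-out libraries), and P2ry12 went to 0.11 without sham replicate 2 (-2.22 to 0.11). The mean share of cells with a UMI was lower in injured libraries for 7 genes at 1000 UMIs and for 6, without Olfml3, under each of the 5 alternatives. The mean number of identity genes seen per cell, relative to sham, was 0.303 to 0.683 over the left-out libraries, and the genes with all injured libraries below both sham libraries were 5 in CPM and 1 with TMM scaling. At a resolution of 0.8, P2ry13 was highest in a dendritic cells-like cluster (37.7 CPM), and 5 rather than 6 genes peaked in a macrophages/microglia-like cluster. Siglech and Olfml3 had the fewest UMIs in gated cells (16 and 463), and the part of depth in this was not tested.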
